A study of Arabidopsis thaliana with 28 samples.

Results

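Mock-treated seedlings of Arabidopsis thaliana were followed from 0.5 to 24 h to describe which mature miRNAs dominate and which rise or fall with time when no abscisic acid (ABA) is given. The course comprised 14 of the 28 libraries of the series, 2 at each of 0.5, 1, 3, 6, 9, 12 and 24 h. It was read from the 7 mock columns of a table of 421 miRNA entries, of which 352 had a mean of at least 10 and were tested. All seedlings were wild type, ecotype Col-0, and the mock is written EtOH in the labels. The other 14 libraries were from wild-type Col-0 seedlings given ABA for the same times. No source used here states the dose, the seedling age or the light regime. No sample at 0 h was used here, so time since the mock, time of day and growth cannot be told apart. In whole seedlings, a lower level cannot be told apart from fewer cells of the type that makes the miRNA.

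Plant miRNAs are cut from a hairpin precursor by DICER-LIKE1 as a duplex of a guide strand and a passenger strand. The guide is loaded into ARGONAUTE1, mostly when it begins with U, and directs cleavage or translational repression of mRNAs with a nearly complementary site. The passenger strand is usually degraded. Many conserved families of seedlings set the level of transcription factors, while others, such as miR397, miR398, miR395 and miR399, answer to copper, sulfate and phosphate supply.

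The sequences below carry the results, since the first 8 were the most abundant ones, the next 6 rose with time and the last 5 fell. They are the mature sequences of RefSeq TAIR10.1, read 5′ to 3′, with bases 2 to 8, the seed, in capitals.
miR393a-5p: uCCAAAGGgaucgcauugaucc
miR159a: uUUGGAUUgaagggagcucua
miR168a-5p: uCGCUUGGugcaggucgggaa
miR159b-3p: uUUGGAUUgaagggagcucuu
miR158a-3p: uCCCAAAUguagacaaagca
miR167b: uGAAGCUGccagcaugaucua
miR319a: uUGGACUGaagggagcucccu
miR166a-3p: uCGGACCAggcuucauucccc
miR157a-3p: gCUCUCUAgccuucugucauc
miR157c-3p: gCUCUCUAuacuucugucacc
miR156b-3p: uGCUCACCucucuuucugucagu
miR168b-3p: cCCGUCUUguaucaacugaau
miR391-3p: aCGGUAUCucuccuacguagc
miR5651: uUGUGCGGuucaaauaguaac
miR398b-3p: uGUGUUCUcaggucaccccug
miR397a: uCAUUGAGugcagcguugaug
miR397b: uCAUUGAGugcaucguugaug
miR169a-5p: cAGCCAAGgaugacuugccga
miR169i: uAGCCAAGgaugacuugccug
By shared seed they form pairs: miR159a with miR159b-3p, miR157a-3p with miR157c-3p, miR397a with miR397b and miR169a-5p with miR169i. All 8 abundant sequences begin with U, as do all of the 12 most abundant. Of the 6 that rose, miR157a-3p, miR157c-3p, miR168b-3p and miR391-3p begin with another base.

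The columns had been scaled separately for each time, so each was divided by its median-of-ratios factor over the 388 entries above 0 in all 7, and the factors ran from 0.829 at 6 h to 1.2 at 1 h. Values given here are these rescaled mean read counts. All mature miRNAs are of nearly one length, so levels of different miRNAs are set side by side without a correction for length. Whether different sequences were read with equal efficiency was not tested. Abundance, ranks and shares here are therefore those of read counts. Library values could be recovered for 296 of the 352 entries, and the other 56 were mostly abundant ones with group means only. Libraries a and b of a time differed in log2 level with an SD of 0.327 at 12 h, the closest pair, and 0.655 at 3 h, the least close. Only at 12 and 24 h was each library closest to its own partner by correlation, and at the other 5 times 1 or both were closer to a library of another time. The partners at 3 h were least alike (0.967), with library a at 0.989 to library a of 12 h. The labels do not tell separate cultures from repeat libraries, so a p-value from library values reflects a spread that may be technical. A p-value of the time trend or of the slope difference rests on group means. It reflects the scatter of these means about a straight line, not the spread between libraries.

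A few guide strands made up most of the mock miRNA signal at every time. Counting each distinct mature sequence once, at its highest entry, the 12 most abundant of 343 sequences held 78.4% of the summed level, between 73.5% at 12 h and 82.6% at 0.5 h. The most abundant sequence held 13.5% to 20.7% of the total at a time, and 29 sequences had a mean of at least 10000. By family, miR159, which targets GAMYB transcription factors, held 23.3% of the total (19.1% to 26.6% over the times). The families miR393, miR168, miR167 and miR158 held 17.5%, 10.2%, 6.83% and 6.76%.

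The highest sequence was miR393a-5p, identical to miR393b-5p, which targets the TIR1/AFB auxin receptors. Its level was 672395, 584336, 400801, 622091, 535796, 330535 and 526118 at 0.5, 1, 3, 6, 9, 12 and 24 h. Next was miR159a with 633944, 674058, 385416, 465820, 498175, 347696 and 481271 at the same times. The 2 sequences changed places between times, so neither was the highest throughout. Their means were 524582 ± 121128 and 498054 ± 119763. The SD is over the 7 group means, so it holds the spread between libraries beside any change along the course. Both sequences were lowest at 12 h and next lowest at 3 h.

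The sequence of miR168a-5p, which targets AGO1, was the third at every time, with a mean of 303422 ± 42856. It was followed by miR159b-3p at 205960 ± 41116, miR158a-3p at 189376 ± 27451 and miR167b, which targets ARF6 and ARF8, at 175133 ± 39794. These 3 held ranks 4 to 7, and their order changed between times. Then came miR319a, which targets TCP factors, at 133678 ± 22395 and miR166a-3p, which targets HD-ZIP III factors, at 112719 ± 14305. The remaining 4 of the 12 were miR163 at 66556 ± 33481, miR396a-5p, which targets GRF factors, at 63791 ± 11511, miR397b, which targets laccases, at 57654 ± 15377 and miR824-5p, which targets AGL16, at 46350 ± 8072. Among these 12, the level of miR163 varied most over time, 3.21-fold between its highest and lowest value, and that of miR166a-3p least, 1.43-fold. Of the 12, the limma trend test over the 7 times called miR163 and miR397b, both lowered, and the other 10 did not pass.

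**Figure D1:**
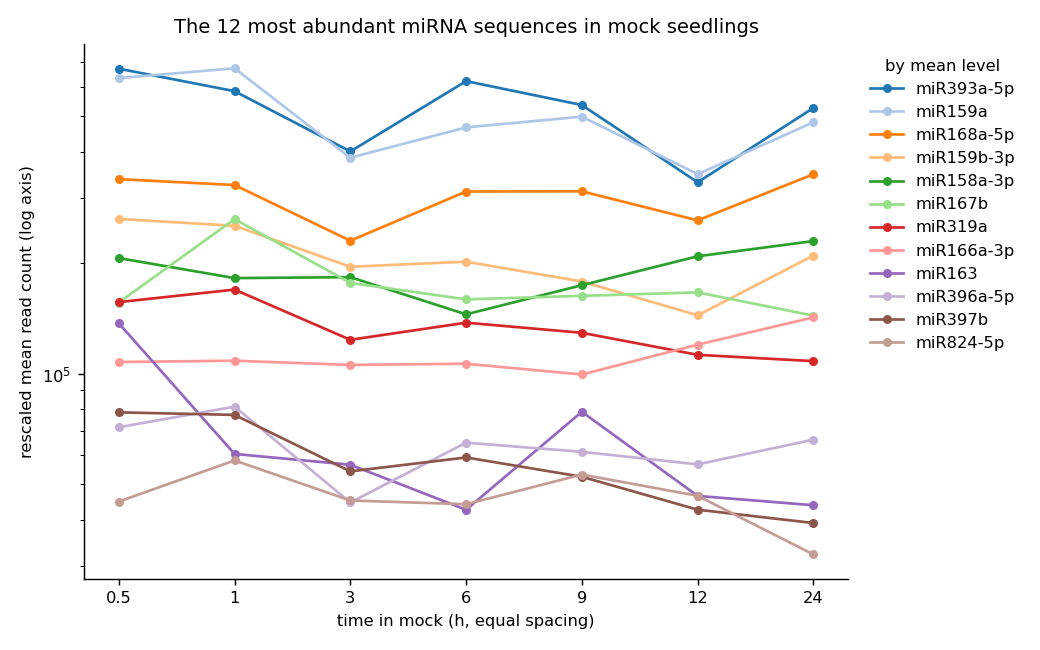
Rescaled mean read count (log axis) of the 12 most abundant distinct miRNA sequences at each of 7 mock times, each point the mean of 2 libraries. The lines of miR393a-5p and miR159a lie at the top and cross, and miR163 is at 136963 at 0.5 h and at 60502 at 1 h.

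Which miRNAs rose or fell along the course was asked by a straight line through log2(level + 1) against log2 of the hours, fitted with limma to the 7 group means. Changes are given as the fitted log2 change from 0.5 to 24 h with its SE, on the log2(level + 1) scale. Of the 352 entries, 38 rose (10.8%) and 30 fell (8.52%), 19.3% in all, and 105 had an unadjusted p under 0.05. They held 32 raised and 19 lowered distinct sequences of 274 tested. The count rests on single times: without 1 h it was 15 raised and 5 lowered, without 12 h 28 and 11, without 24 h 27 and 14, without 9 h 36 and 18, and without 0.5 h 24 and 22. Without 3 h, the time with the least alike libraries, it was 40 and 31. Scaling matters for the balance. With the deposited scaling the median of all entries moved by -0.26, with 21 raised and 37 lowered, and with equal column totals by 0.20, with 39 and 5.

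Counting each sequence once, the largest fall was that of miR398b-3p, a miRNA of the copper response, which targets copper/zinc superoxide dismutases and has the same sequence as miR398c-3p. Its library values were 3659 and 5030 at 0.5 h, 4799 and 2992 at 1 h, 2440 and 2290 at 3 h, 1945 and 2541 at 6 h, 1696 and 1227 at 9 h, 1425 and 1628 at 12 h, and 1462 and 1571 at 24 h. All libraries from 9 h on lay below all those of 0.5 and 1 h. The fitted change was -1.75 (SE 0.25, adjusted p = 0.000559), 3.37-fold lower. It also passed the limma F test over the 7 times, which uses the library values (adjusted p = 0.00403).

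The laccase regulators miR397a and miR397b also fell. The libraries of miR397a held 996 and 1108 at 0.5 h, 916 and 875 at 1 h, 668 and 781 at 3 h, 704 and 840 at 6 h, 554 and 569 at 9 h, 460 and 413 at 12 h, and 490 and 528 at 24 h. Every library of 9, 12 and 24 h was below every earlier one. The fitted change was -1.17 (SE 0.24, adjusted p = 0.00508), and miR397a had the smallest p of the F test (adjusted p = 0.00403). The abundant miR397b was at 78472, 77226, 54259, 59190, 52453, 42697 and 39282 over the 7 times, a fall of 1.02 (fitted -1.02, SE 0.24). Both calls of miR397 held under equal column totals, and that of miR397b was lost without 1 h.

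Of the 11 copper entries tested, 4 fell (36.4%, against 8.52% of all entries) and 0 rose. Those that fell were miR397a, miR397b and the miR398b-3p and miR398c-3p entries of 1 sequence. This list and those below were chosen with earlier results of these data known, so their shares are descriptive only. The values of miR408-3p, which targets plantacyanin and laccases, at 0.05 (SE 0.30), miR857 at 0.07 and miR398a-3p at -0.50 (adjusted p = 0.16) did not pass. The other arm of miR408, miR408-5p, had a trend of 0.81 that did not pass (adjusted p = 0.109). It passed the F test (adjusted p = 0.0182), with its highest level at 3 h. Its libraries held 1967 and 1920 at 24 h and 2175 and 1997 at 12 h, against 1147 and 1010 at 0.5 h, and it was raised in both contrasts (0.85 with adjusted p = 0.0356 at 24 h, 0.95 with adjusted p = 0.0214 at 12 h). The list's median was -0.02 against -0.003 over all 352 entries, and it was 0.19 with equal column totals. On TAIR10.1 the mature miR398b-3p lies at chr5:4691107-4691127, plus strand, in MIR398b and opposite to the coding gene AT5G14550. The mature miR397a lies at chr4:2625960-2625980, plus strand, in MIR397a and opposite to ENT6.

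Among phosphate miRNAs, 4 of 10 tested entries fell (40%, against 8.52% of all entries) and 0 rose. The level of miR399d, which targets the ubiquitin conjugase PHO2, was 34.4, 44.9, 24.1, 15.4, 20.8, 15.8 and 20.8 over the 7 times (fitted change -1.22, SE 0.38, adjusted p = 0.0407). Both arms of miR2111b fell by 0.91, with fitted changes of -0.91 for miR2111b-3p and -0.91 for the 5p sequence that it shares with miR2111a. The values of miR827 at 0.16 and miR399f at -0.57 did not pass. On library values miR399d passed neither the F test (adjusted p = 0.186) nor the contrast of 24 h against 0.5 h (-0.64, adjusted p = 0.415). That contrast lowered 0 of the 10 and raised 1, miR399c-5p at 0.83 (adjusted p = 0.046), with 252 and 304 at 24 h against 138 and 174 at 0.5 h. The list had 0 calls with equal column totals, 0 without 1 h, and 2 lowered without 0.5 h or without 12 h.

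The miR169 family, which targets NF-YA subunits, had 11 of 18 tested entries lowered (61.1%) and 1 raised (5.56%). Over all entries 8.52% fell and 10.8% rose. Counted at the highest entry of each sequence, 3 of 8 fell, miR169a-5p, its partner arm miR169a-3p and miR169i. The entries miR169d and miR169e of another sequence also fell, while its highest entry did not pass. The level of miR169a-5p was 26268, 31623, 29159, 18485, 14890, 18598 and 12915 over the times, with a fitted change of -1.19 (SE 0.29, adjusted p = 0.0133). The sequence of the loci h to n, here miR169i, was at 3374, 4561, 4725, 3543, 2920, 2440 and 1777, with a fitted change of -1.01 (SE 0.33, adjusted p = 0.0434). The member that rose was the passenger arm miR169b-3p at 1.03 (SE 0.26). The limma F test on library values called 0 of the 16 members it could test, 12 of them with an unadjusted p under 0.05. It could not test miR169a-5p and miR169c, which had group means only. The trend called 0 of the 18 as lowered with equal column totals or without 1 h, 2 without 24 h, 3 without 12 h and 5 without 9 h. Entries of the h to n sequence differed up to 4.13-fold from each other although it is 1 sequence.

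Other lowered miRNAs were scattered over families. The level of miR163, which targets SABATH methyltransferases, was 136963, 60502, 56556, 42683, 78741, 46536 and 43908 over the times. It was highest at 0.5 h and not steadily lower after it, and its call (fitted change -1.20, adjusted p = 0.0403) was lost without 0.5, 12 or 24 h. The passenger arm miR159b-5p fell by 1.07 (fitted -1.07, SE 0.24), miR8170-3p by 1.06 (fitted -1.06, SE 0.27) and miR861-3p by 0.89 (fitted -0.89, SE 0.28, adjusted p = 0.0414). With equal column totals the calls of miR399d, miR163, miR169a-5p, miR8170-3p, miR169i, miR861-3p and of both miR2111b arms were lost, and those of miR398b-3p, miR397a, miR397b and miR159b-5p were kept. Without 1 h the calls of miR399d, miR169a-5p, miR159b-5p, miR397b, miR169i, miR861-3p and both miR2111b arms were lost, and without 0.5 h those of miR399d, miR163, miR8170-3p, miR2111b-3p and miR861-3p. Without 24 h those of miR163, miR169a-5p, miR8170-3p, miR169i and miR2111b-5p were lost, without 12 h those of miR399d, miR163, miR169i, miR2111b-3p and miR861-3p, and without 9 h those of miR399d, miR169i and miR861-3p. Of 10 tested entries of the MYB regulators miR858, miR828, miR319 and miR159, 2 fell (20%, against 8.52% of all entries). They were miR159b-5p and miR319c, the latter at -0.74 (adjusted p = 0.0492). This list had 0 lowered without 1 h, and 1 without 3, 6, 9 or 12 h or with equal column totals. Of 3 entries of the miR842 and miR846 transcript, miR846-5p fell (fitted -0.79). Of 8 entries of miR170 and miR171, which target SCARECROW-LIKE factors, the limma trend called 0, with 2 at an unadjusted p under 0.05, and 2 as lowered with the deposited scaling. The limma contrast of 12 h against 0.5 h lowered 2 of the 8, miR170-5p at -0.89 and miR171a-5p at -0.88 (adjusted p = 0.0445 each). These are 2 entries of 1 sequence, and the contrast lowered 3.38% of all entries. Of 5 entries of a defence list the trend called 0, with 0 at an unadjusted p under 0.05. In a day-night list 3 of 22 rose (13.6%) and 2 fell (9.09%), close to the 10.8% and 8.52% of all entries.

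The largest rise was that of miR391-3p. Its library values were 22.7 and 24 at 0.5 h, 17.7 and 20.3 at 1 h, 33.9 and 9.54 at 3 h, 48.9 and 33.2 at 6 h, 56.6 and 20.1 at 9 h, 55.7 and 78.1 at 12 h, and 213 and 174 at 24 h. Both libraries of 24 h lay far above every other one, while those of 3 and 9 h spread widely. The fitted change was 2.69 (SE 0.51, adjusted p = 0.00374), 6.45-fold higher. The mature sequence lies at chr5:24293211-24293231 of TAIR10.1, plus strand, in MIR391. Without 24 h the call of miR391-3p was kept.

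Further rises were seen among low miRNAs. The level of miR773b-5p was 4.92, 8.63, 11.9, 15.2, 13.4, 25.4 and 27.3 over the times (fitted change 2.11, SE 0.42, adjusted p = 0.00415). The level of miR447c-5p was 3.22, 7.71, 7.73, 15.2, 7.78, 21.2 and 18.7 (2.02, SE 0.53). Those of miR5023 and miR5633 had fitted changes of 1.94 (SE 0.43) and 1.59 (SE 0.43). These 4 had means of 11.7 to 19.6, near the minimum of 10, and their sizes rest on few reads. The call of miR447c-5p was lost without 0.5, 12 or 24 h, that of miR5023 without 24 h and that of miR5633 without 1 or 24 h. The nearest sequences on either side of that minimum were miR394b-3p at 9.45 below it and miR5630a at 10.4 above it.

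Among entries with a mean of at least 10000, the largest rise was that of miR158a-5p, the other arm of the abundant miR158a-3p. Its level was 5815, 6305, 12582, 18696, 17856, 15792 and 17557 over the times, with a fitted change of 1.87 (SE 0.30, adjusted p = 0.0013). It had reached its later level by 6 h.

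At moderate levels, miR5651 had the smallest p of the raised side. Its libraries held 253 and 269 at 0.5 h, 281 and 226 at 1 h, 389 and 272 at 3 h, 488 and 542 at 6 h, 658 and 403 at 9 h, 602 and 569 at 12 h, and 698 and 778 at 24 h. Every library from 3 h on was above every one of 0.5 h, and those of 24 h were the highest. The fitted change was 1.64 (SE 0.22, adjusted p = 0.000559). The level of miR5028 was 127, 153, 285, 221, 277, 316 and 356, a rise of 1.45 (SE 0.23). The level of miR400, which targets pentatricopeptide repeat genes, rose by 1.27 (SE 0.24, adjusted p = 0.00374).

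**Figure D2:**
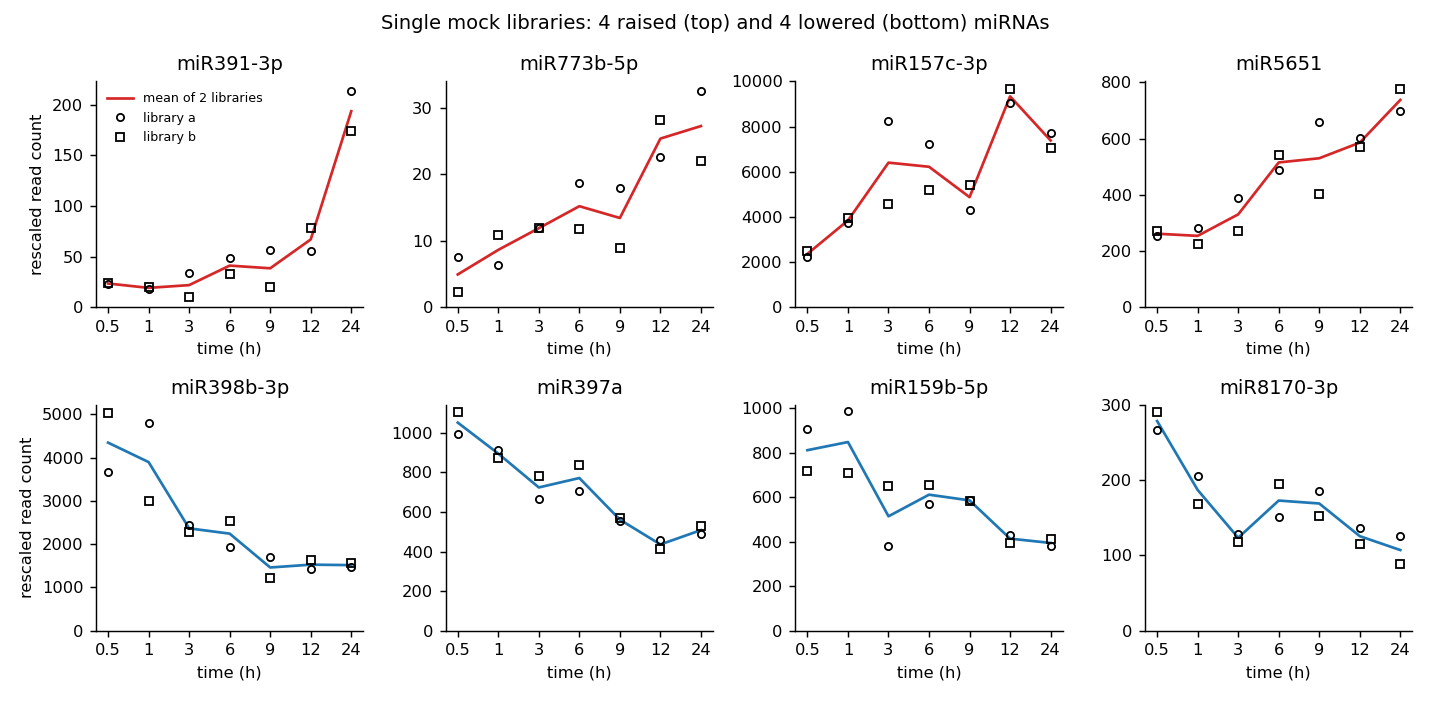
Rescaled read count of single mock libraries (circles for library a, squares for library b) and their mean (line) against time in h, for 4 raised miRNAs (top) and 4 lowered ones (bottom). The libraries of miR391-3p reach 213 and 174 at 24 h, and those of miR398b-3p stay at or below 1696 from 9 h on.

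Passenger strands made up a large part of the raised entries. Of 46 tested passenger arms of conserved families, 16 rose (34.8%) and 2 fell (4.35%), against 10.8% and 8.52% of all entries. Of 92 guide strands of the same families, 4 rose (4.35%) and 18 fell (19.6%). The strand names are those of the known guides, and in 9 of 46 hairpins the arm called passenger had the higher read count here. These were the arms of miR169f, miR169g, miR170, miR171a, miR172b, miR172e, miR398a, miR398b and miR398c. The raised miR172b-5p and miR172e-5p, at 141% and 345% of their guides, are among them. Counted by sequence, 13 of 40 passenger sequences rose and 2 fell, and 2 of 49 guide sequences rose and 8 fell. The median fitted change was 0.45 for the passenger arms and -0.10 for the guides. The passenger counts were 6 raised and 0 lowered without 1 h, 9 and 3 without 0.5 h, 10 and 3 without 24 h, 8 and 4 with the deposited scaling, and 17 and 1 with equal column totals. The lowered guides were 4 with equal column totals, 3 without 1 h, 7 without 12 h and 9 without 9 h or without 24 h, and the guides' median was 0.10 with equal column totals.

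Some, but not all, passenger arms of the phase change families were among them. The guides miR156 and miR157 target SPL factors and hold plants juvenile, while miR172 targets AP2-like factors. The libraries of miR157c-3p held 2230 and 2487 at 0.5 h, 3720 and 3961 at 1 h, 8238 and 4563 at 3 h, 7243 and 5192 at 6 h, 4316 and 5426 at 9 h, 9028 and 9646 at 12 h, and 7711 and 7051 at 24 h. All libraries after 1 h lay above those of 0.5 and 1 h, and the 12 h pair was the highest. The fitted change was 1.59 (SE 0.33, adjusted p = 0.00536). The sequence of miR157a-3p and miR157b-3p was at 8550, 8989, 15629, 18433, 13108, 24089 and 27138 (fitted change 1.65, SE 0.30). The levels of miR156b-3p and of the 5p sequence of miR172b and miR172e rose by 1.35 (SE 0.30) and 1.31 (SE 0.27). The calls of miR157c-3p and miR156b-3p were lost without 0.5 h. In all, 8 of 28 phase change entries rose (28.6%, against 10.8% of all entries) and 0 fell. Without 1 h 5 were raised, and without 0.5 h 5 were raised and 1 was lowered. Of the 8 entries, 1 was a guide, miR157d at 0.95 (SE 0.25), while the guides miR157c-5p at 0.54 (adjusted p = 0.204) and miR156d-5p at 0.40 (adjusted p = 0.447) did not pass. The passenger arms miR156c-3p at -0.08, miR156a-3p at -0.57 and miR156f-3p at 0.11 did not pass the trend either (adjusted p = 0.872, 0.333 and 0.813). Their mean levels were 35773, 27267 and 4146.

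Of 10 entries of the silencing pathway regulators miR162 (target DCL1), miR168 (AGO1) and miR403 (AGO2), 3 rose (30%) and 0 fell. All 3 were passenger arms, and of all entries 10.8% rose. Without 1 h 0 rose, and 1 rose without 24 h or with the deposited scaling, where the list's median of 0.23 became -0.03. By sequence 2 of 7 rose. The trend of miR162a-5p passed (0.93, adjusted p = 0.0264), but miR162b-5p, the higher entry of its sequence, did not (0.46, adjusted p = 0.203). The libraries of miR168b-3p held 599 and 567 at 0.5 h, 414 and 543 at 1 h, 774 and 669 at 3 h, 1032 and 690 at 6 h, 902 and 632 at 9 h, 1341 and 1284 at 12 h, and 1206 and 1085 at 24 h. Those of 12 and 24 h were above all others, and the fitted change was 1.25 (SE 0.27, adjusted p = 0.00673), while the guide miR168a-5p was at -0.06 (SE 0.26). Among 24 entries of miR393, miR390, miR167, miR164 and miR160, which act in auxin signalling and related development, 3 rose (12.5%). They were the passenger arms miR390a-3p at 1.25, miR167a-3p at 1.15 and miR393a-3p at 0.77. The 2 that fell (8.33%) were the entries of 1 guide sequence, miR164b-5p at -0.76. Among 20 entries of miR396, miR319, miR166 and miR165, which act in leaf development, 2 rose (10%) and 1 fell (5%). Here miR396b-3p rose by 1.02 and miR166e-5p by 0.95, and miR319c fell. In this leaf list 0 rose without 0.5 or 1 h or with the deposited scaling. In it 0 fell without 1, 3, 6, 9, 12 or 24 h or with equal column totals. In the auxin list 1 rose without 0.5, 1, 12 or 24 h or with the deposited scaling. There 0 fell without 0.5, 1, 6, 9 or 12 h or with equal column totals. In the list of TAS triggers, 1 of 7 rose (14.3%), again miR390a-3p. Over all entries 10.8% rose and 8.52% fell, so the raised shares of the auxin, leaf and TAS lists lay near the general one.

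Within a hairpin, the ratio of passenger to guide does not depend on the scaling of a column. Among 46 hairpins with both arms tested, the line through log2 of this ratio rose over time in 35 and declined in 11, with a median change of 0.60 from 0.5 to 24 h. The highest change was 1.74, in MIR398c, which shares its guide with MIR398b, and the lowest was -0.97, in MIR156a. In MIR398c the arm called passenger, miR398c-5p, was at 448% of the other and had a trend of -0.02, against -1.75 for miR398c-3p, so the change in ratio was the fall of the 3p arm. Loci that share sequences are not independent here. Centred on each hairpin's mean, the median log2 ratio was -0.22, -0.29, 0.11, 0.10, -0.05, 0.22 and 0.24 at 0.5, 1, 3, 6, 9, 12 and 24 h. It was below 0 at 0.5, 1 and 9 h and above it at 3, 6, 12 and 24 h. The summed passenger sequences held 4.32% of the total at 0.5 h, 5.06% at 1 h, 7.57% at 3 h, 5.86% at 6 h, 5.25% at 9 h, 8.22% at 12 h and 6.32% at 24 h. The share was thus highest at the 2 times at which miR393a-5p and miR159a were lowest. The part of this share in the other results was not tested.

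**Figure D3:**
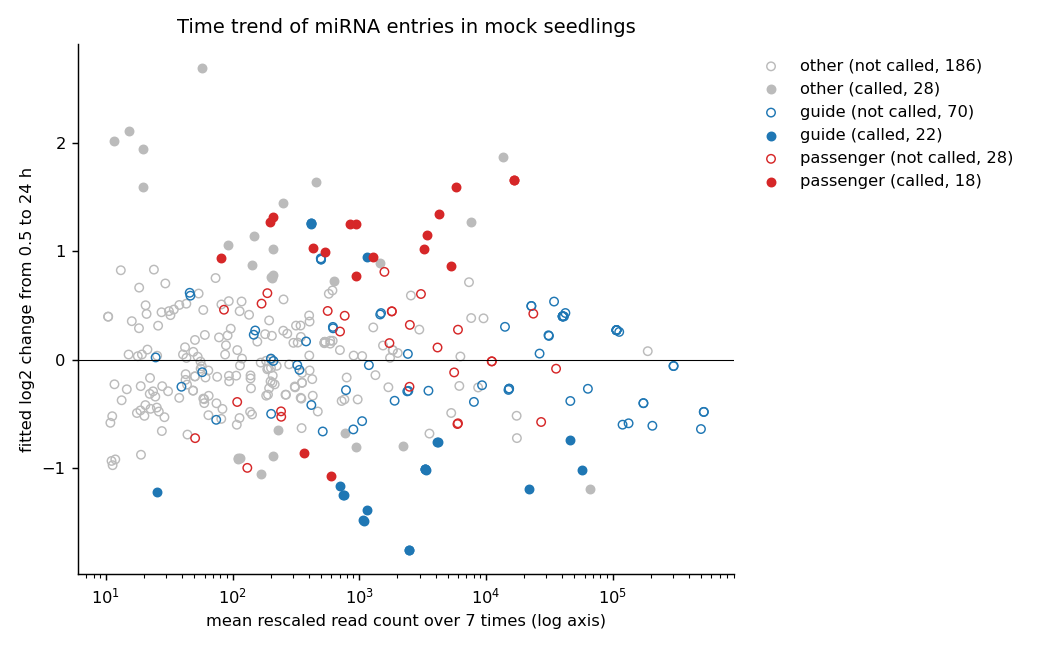
Fitted log2 change from 0.5 to 24 h against the mean rescaled read count (log axis) of 352 entries, with passenger arms in red, guides of the same families in blue and others in grey, and called entries filled. Of the filled points, 16 of 18 passenger arms lie above 0 and 18 of 22 guides below it.

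**Figure D4:**
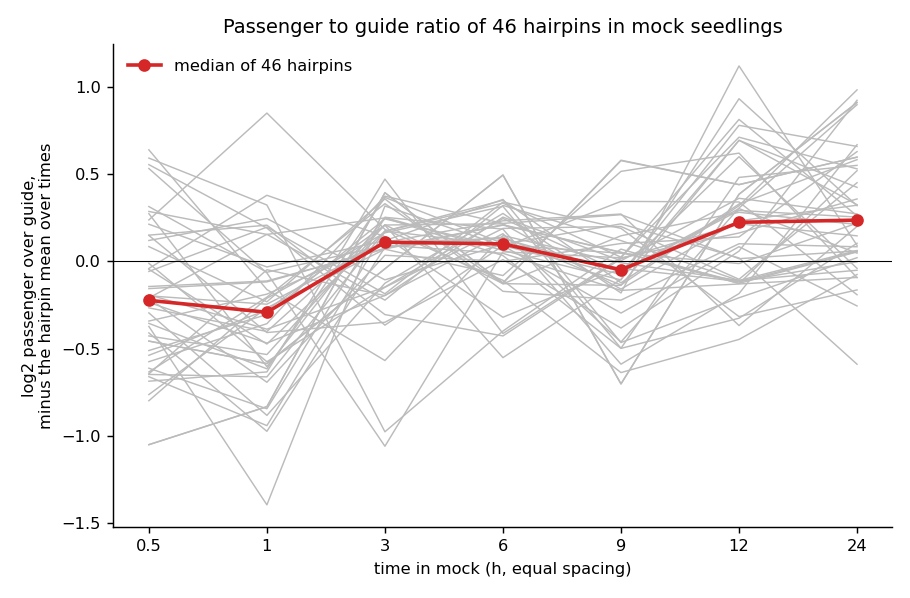
Log2 ratio of passenger to guide level at each time, minus the mean of the hairpin over the times, for 46 hairpins (grey) and their median (red). The median moves between -0.29 at 1 h and 0.24 at 24 h.

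The F test asked for any change over the times against the spread between libraries. Of 296 entries, 45 passed (15.2%), holding 37 of 240 sequences, and 83 had an unadjusted p under 0.05. The 8 sequences with the smallest p were miR397a, miR5651, miR398b-3p, miR164b-3p, miR157c-3p, miR391-3p, miR5028 and miR168b-3p. Of the 45, 12 were highest at 24 h, 10 at 12 h, 8 at 9 h, 7 at 1 h and 6 at 0.5 h, and 18 were lowest at 1 h and 12 at 0.5 h. Of all 296, 57 were highest at 24 h, 52 at 12 h, 32 at 9 h, 57 at 1 h and 37 at 0.5 h, and 55 were lowest at 1 h and 46 at 0.5 h. Without library a of 3 h, 79 entries passed, and 17 without library b of 0.5 h, 18 without library a of 1 h or either library of 12 h, 20 and 22 without library a and b of 24 h, and 23 without library a of 0.5 h.

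This test also called courses that turn back. The passenger arm miR164b-3p held 191 and 255 at 0.5 h, 216 and 178 at 1 h, 71.3 and 53.6 at 3 h, 76.5 and 121 at 6 h, 105 and 121 at 9 h, 86.4 and 80.9 at 12 h, and 114 and 160 at 24 h. Its lowest pair was at 3 h and its 24 h pair lay above the 12 h pair (F test adjusted p = 0.00403, trend adjusted p = 0.138). All 6 entries of miR395, which targets ATP sulfurylases and a sulfate transporter, passed the F test, where the trend called 3 of 6. They hold 2 sequences. That of miR395e, raised by 1.26 (SE 0.30) in the trend, was at 278, 212, 437, 365, 652, 426 and 548 over the times. That of miR395c was at 349, 250, 557, 631, 657, 650 and 403, highest at 9 h and lower again at 24 h. Without 1 h the trend called 0 of the 6, and without 24 h all 6.

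At 24 h against 0.5 h, the limma contrast on library values raised 30 of 296 entries (10.1%) and lowered 9 (3.04%), 13.2% in all. The level of miR391-3p was 213 and 174 at 24 h, against 22.7 and 24 at 0.5 h (a log2 change of 2.99 with SE 0.51 and adjusted p = 0.00165). The next were miR447c-5p at 2.43 (SE 0.63), with 18.7 and 18.7 at 24 h against 5.29 and 1.14 at 0.5 h, and miR773b-5p at 2.39 (SE 0.52), with 32.6 and 22 at 24 h against 7.56 and 2.28 at 0.5 h. The levels of miR5023 and miR157c-3p rose by 2.17 and 1.65. On the lowered side were miR398b-3p at -1.50 (SE 0.26), miR8170-3p at -1.39 (SE 0.23), miR397a at -1.05 (SE 0.18), miR159b-5p at -1.03 (SE 0.25) and miR846-5p at -0.91 (SE 0.20). The calls of miR391-3p, miR157c-3p, miR398b-3p, miR397a and miR8170-3p were kept whichever library was left out. Without library a of 24 h those of miR447c-5p, miR773b-5p, miR5023, miR159b-5p and miR846-5p were lost. Those of miR447c-5p, miR773b-5p and miR5023 were also lost without library b of 0.5 h, those of miR159b-5p and miR846-5p without library a of 0.5 h, and those of miR447c-5p and miR159b-5p without library b of 24 h. The count was 9 without library a of 24 h, 16 without library b of 24 h, 12 without library b of 0.5 h and 15 without library a of 0.5 h. It was 61 without either library of 3 h, a time that enters this contrast only through the pooled spread.

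At 12 h against 0.5 h, 22 of 296 entries rose (7.43%) and 10 fell (3.38%), 10.8% in all. The libraries of miR157c-3p held 9028 and 9646 at 12 h, against 2230 and 2487 at 0.5 h (a log2 change of 1.99 with SE 0.28 and adjusted p = 0.000748). The levels of miR447c-5p, miR773b-5p, miR156b-3p and miR390a-3p rose by 2.57, 2.31, 1.56 and 1.39. Those of miR398b-3p, miR164b-3p, miR861-3p, miR397a and miR8170-3p had log2 differences of -1.49, -1.39, -1.35, -1.27 and -1.15. For miR861-3p the libraries held 128 and 114 at 12 h, against 277 and 347 at 0.5 h. The calls of miR157c-3p and miR397a were kept whichever library was left out. That of miR390a-3p was lost without any 1 of the 4 libraries compared. Those of miR447c-5p, miR773b-5p, miR156b-3p, miR398b-3p, miR164b-3p, miR861-3p and miR8170-3p were lost without library b of 0.5 h, and those of miR447c-5p, miR773b-5p and miR8170-3p also without library b of 12 h. The contrast shares its 0.5 h libraries with that of 24 h, and without library b of 0.5 h 3 calls were left, without library b of 12 h 12, without library a of 12 h 19 and without library a of 0.5 h 21.

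The mock course was set against the ABA course by the difference of their slopes, in log2 units for each doubling of time, with all 14 columns scaled together. Of 348 entries, 33 differed (9.48%), 25 with the mock slope above the ABA slope (7.18%) and 8 below it (2.3%). Without 0.5 h the count was 17, without 1 h 21 and without 24 h 18. With the time as a block, which compares mock and ABA within each time, it was 60, with 25 below. The lean towards mock above thus depends on the model. For miR398b-3p the mock slope was -0.32 and the ABA slope 0.08 (difference -0.40, SE 0.06, adjusted p = 0.000359). Mock seedlings had 1549 at 24 h against 5781 with ABA, while at 0.5 h mock seedlings had 4337 against 3964 with ABA. The level was thus lower in mock at the end and close to that with ABA at the start.

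Likewise miR2111b-3p had a mock slope of -0.17 and an ABA slope of 0.33, and miR824-5p one of -0.07 in mock and 0.32 in ABA. The reverse was seen for miR169g-3p, with 0.04 in mock and -0.34 in ABA, miR169f-3p, with 0.06 in mock and -0.41 in ABA, and miR5028, with 0.26 in mock and -0.10 in ABA. Mock seedlings had 363 of miR5028 at 24 h, against 127 with ABA. The call of miR5028 was lost without 0.5 h, and those of miR169g-3p, miR398b-3p and miR2111b-3p with hours on a linear scale. All 6 miR395 entries were called with a mock slope above the ABA slope, with medians of 0.19 in mock and -0.36 in ABA. Of the 46 passenger arms, 10 were called with a mock slope above the ABA slope and 1 below it. Over all 348 entries, 7.18% were called above and 2.3% below. The median slopes of the passenger arms were 0.08 in mock and -0.03 in ABA. Arms of loci that share a sequence were counted as separate entries.

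**Figure D5:**
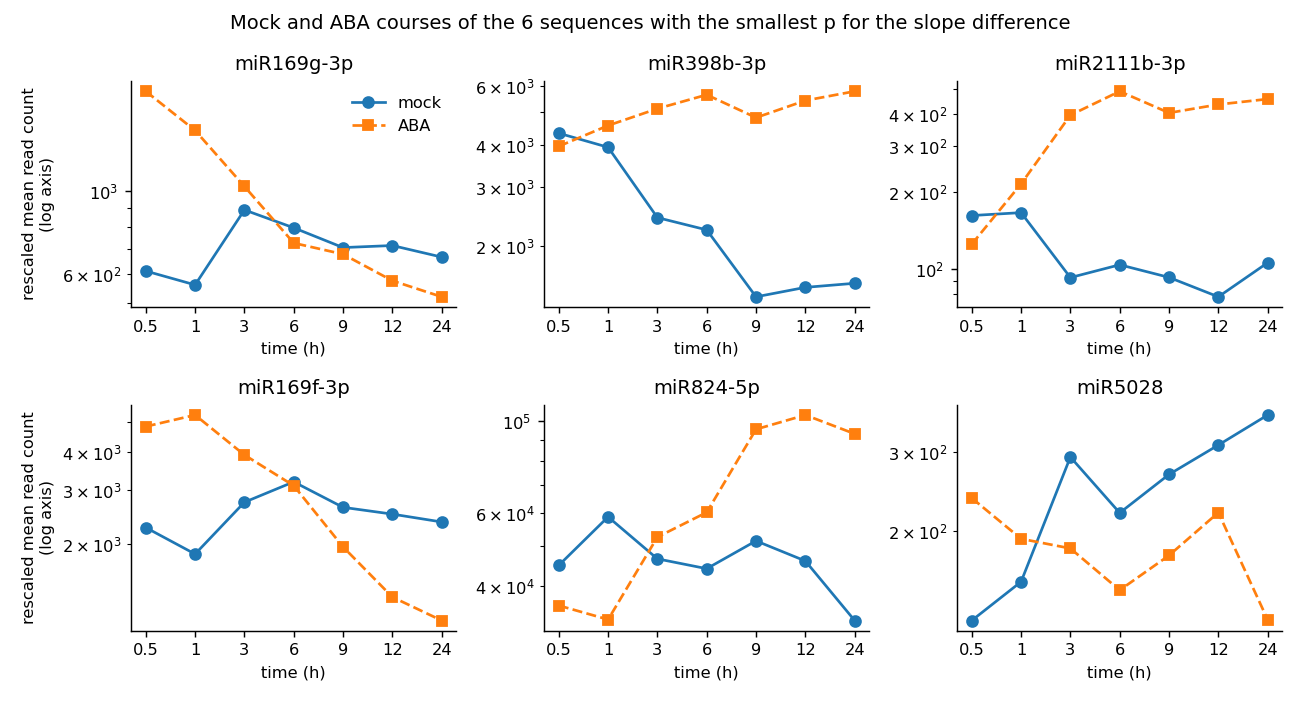
Mean rescaled read count (log axis, all 14 columns scaled together) in mock (circles, solid) and ABA (squares, dashed) at 7 times for the 6 sequences with the smallest p for the slope difference. For miR398b-3p the mock line ends at 1549 and the ABA line at 5781.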

How the data were processed

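The submitters' processing notes name FastQC, STAR and TAIR10. No source used here gives the counter, the miRNA annotation, the treatment of reads that map to several loci or the normalization. The deposited signal columns each hold 1 treatment at 1 time, per the file headers, and the values had the form of the mean of 2 counts divided by size factors. Where exactly 1 pair of whole counts gave a value, it was split into its libraries. Recovered reads in mock summed to 218054 to 653137 a library and held 4.94% to 11.4% of a column's total, so the full depth is unknown. In each group library a has the larger size factor.

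Columns were rescaled by median of ratios, with a pseudocount of 1 and a minimum mean of 10. Fits used limma 3.58.1 (eBayes with trend) in R 4.3.3, two-sided, with Benjamini-Hochberg adjustment over all tested entries and 0.05 as the threshold. The trend used 7 means, and the F test and contrasts used 14 libraries with 7 residual degrees of freedom. The methods were tested on simulated data. Of 421 names, 413 matched RefSeq TAIR10.1 by name, with 335 distinct sequences, and each of the other 8 was counted as a sequence of its own.

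Named were the 12 most abundant sequences, the 12 raised and 12 lowered with the largest trend, the 8 of the F test and 6 of the slope difference with the smallest p, the 5 largest changes each way of each contrast, and list members as examples. The entry with the highest mean stands for loci sharing a sequence, whose reads cannot be assigned. The members and lists were chosen with earlier results of these data known. Beside other scalings, filters, pseudocounts and time axes, single times or libraries were left out.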

Additional observations from a re-analysis of the deposited data

Results flagged for a closer look

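For 6 sequences the time slope differed between mock and ABA by the limma test of the difference itself, in log2 units per doubling of time, mock minus ABA. The difference was -0.491 for miR2111b-3p, -0.400 for miR398b-3p and -0.390 for miR824-5p, with the mock slope lower. It was 0.469 for miR169f-3p, 0.388 for miR169g-3p and 0.357 for miR5028, with the mock slope higher. These are the 6 with the smallest p of 33 called entries.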

How the results depend on the processing

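No paired analysis was possible because the columns and the recovered libraries carry no replicate number. The trend count of 68 (38 raised, 30 lowered) was 44 with equal column totals (5 lowered) and 40 with hours on a linear scale (22 raised, 18 lowered). The raised count was 21 with the deposited scaling, and the lowered count was 17 with no filter and 18 with 1 entry per sequence. With 1 time left out the trend count was 20 to 71, with 15 to 40 raised and 5 to 31 lowered. The F test count of 45 was 77 with the deposited scaling and 17 to 79 with 1 library left out. The 24 h count of 39 was 59 with the deposited scaling (19 raised, 40 lowered) and 9 to 61 with 1 library left out (5 to 38 raised, 4 to 23 lowered). The 12 h count of 32 was 3 to 46 with 1 library left out (2 to 29 raised, 1 to 17 lowered). The slope difference count of 33 was 15 with linear hours (14 above, 1 below) and 60 with the time as a block (25 below). With 1 time left out it was 17 to 39 (11 to 28 above, 6 to 11 below). Among 1067 alternative values of the 58 results on named miRNAs, 978 kept their call, 89 lost it and 0 reversed. The cause of these moves was not tested, and the abundant miRNAs without library values could not enter the F test and the contrasts.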

Other observations

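The first base of the mature sequence, to which ARGONAUTE loading is known to be sensitive, was set beside the calls. Of 269 tested sequences with a RefSeq match, 145 began with U (53.9%), as did 11 of the 32 that rose (34.4%) and 12 of the 19 that fell (63.2%). A first base of G was seen in 31 tested sequences (11.5%), 9 raised and 3 lowered ones. Weighted by level, sequences beginning with U held 93.9% at 0.5 h, 92.8% at 1 h, 89.5% at 3 h, 91.8% at 6 h, 92.4% at 9 h, 89.2% at 12 h and 91.7% at 24 h. Since many raised sequences were passenger arms, these counts and the arm counts describe overlapping entries.

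Of 45 sequences listed at several loci, 30 had entries within 10% of each other at every time. The entries of miR5635c and its copies differed most, up to 6.02-fold, so their sequences give no single level.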
